A study of Mus musculus with 24 samples.

Results

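Nat10 and Thumpd1 encode the enzyme and the tRNA-binding adaptor of RNA cytidine acetylation, and their mRNAs were followed in 32D cells, an IL-3-dependent mouse bone marrow line. The pair was chosen by name, so 2 of the 55414 gene identifiers in the count tables are described here. The series asked how ac4C and binding by NAT10 bear on mRNA lifetime, and it compared wild type cells (WT) with 2 clones labelled Nat10+/- (KO1 and KO2). Cells of all 3 genotypes grew with serum and IL-3 and received actinomycin D, an inhibitor of transcription, at 0.05 µg/ml. They were collected after 0, 3, 6 and 9 h, with 2 libraries of polyadenylated RNA for each genotype and time. That gave 24 libraries in 12 groups. Whether this dose stopped the synthesis of mRNA was not tested, so changes over time are changes in level and not rates of decay. KO1 and KO2 are each a single clone, and both are heterozygous by label, so neither lacks Nat10 by design. The sources used here do not give where in the gene the clones were altered. The counts cover all exons of Nat10, so they do not show by themselves whether a transcript was intact.

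NAT10 transfers an acetyl group to cytidine, which makes N4-acetylcytidine (ac4C). Its known targets include a helix of the 18S rRNA, serine and leucine tRNAs, and mRNA, and it also takes part in the assembly of the small ribosomal subunit in the nucleolus. THUMPD1 has no known catalytic activity of its own. It binds tRNA through its THUMP domain and is needed for NAT10 to acetylate tRNA, while guide snoRNAs direct NAT10 to rRNA.

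In the files' annotation (GRCm39), Nat10 (ENSMUSG00000027185) lies on the minus strand of chromosome 2, from 103551601 to 103591615, with 28 merged exons of 7199 bases in all. Thumpd1 (ENSMUSG00000030942) lies on the minus strand of chromosome 7, from 119314316 to 119320021, with 4 merged exons of 3004 bases. No other listed gene overlapped the span of either, on either strand (0 genes for each), so counting without strand did not add reads of a listed neighbour. GENCODE M21, which is on the older build GRCm38, lists 14 transcripts of Nat10, of which 3 are protein coding and 11 are retained introns. For Thumpd1 it lists 1 protein coding transcript and 1 retained intron. The longest coding transcript is 3879 bases for Nat10 and 2689 bases for Thumpd1. The exon length counted for Nat10 is therefore well above that of its longest mRNA.

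The start of Nat10 is shown because its transcript level is the measurement that the other results turn on. RefSeq (GRCm38.p6) places it within chr2:103761221-103761520 on the minus strand, and the 300 bases run from 250 before to 50 after the start, with each CG dinucleotide in capitals.
Nat10: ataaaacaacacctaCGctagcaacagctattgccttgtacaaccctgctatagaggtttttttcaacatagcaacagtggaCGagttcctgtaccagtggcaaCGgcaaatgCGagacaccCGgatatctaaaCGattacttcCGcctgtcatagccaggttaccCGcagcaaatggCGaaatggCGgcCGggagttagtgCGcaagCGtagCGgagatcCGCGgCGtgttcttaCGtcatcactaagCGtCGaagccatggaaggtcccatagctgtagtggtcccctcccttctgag
This window holds 20 CG dinucleotides, against a median of 7 over 32851 such windows, and 26.5% of windows hold at least as many. A CG read on either strand is the same dinucleotide, so the count covers both, and its GC content is 52.0%. The RefSeq window of Thumpd1 begins 2821 bases upstream of the start that GENCODE gives for the gene and is not shown.

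Each library held between 15361601 and 17338939 gene counts. The 2 genes drew between 815 and 2216 counts per library. The exact 95% binomial interval of a gene's share of the counts had a half-width of 4.19% to 6.93% of that share (counting error only). Levels are in CPM, the count scaled to a fixed library size, after TMM scaling, so a change is relative to the average transcript and not to the cell. Fewer cells and less RNA per cell cannot be told apart in such samples. The spike-in RNA was labelled as added in equal amount, but the WT libraries held 120 to 257 spike-in counts and the clone libraries 3742 to 13774. Set against gene counts, spike-ins at 0 h came to 7.19 ± 0.379 CPM for WT (SD, n = 2 in each group), but to 240.4 ± 0.290 CPM for KO1 and 332.9 ± 12.9 CPM for KO2. Changes over time are therefore also given on the scale of the spike-ins where that moves the result, and no difference between genotypes at one time is given on it. Of 10 myeloid markers, 7 had a median above 5 CPM, and the list summed to 903.2 to 1057 CPM in the libraries at 0 h and 411.6 to 652.1 CPM at later times. Kit, a receptor of progenitor cells, was at 0 in 23 of the 24 libraries. Among 7 lymphoid markers, Cd4, Cd8a and Ms4a1 were at 0 in every library. The list summed to at most 0.304 CPM at 0 h and to 11.98 to 24.5 CPM later, nearly all of it from Cd79a, with 0 to 4 counts per library at 0 h and 182 to 411 later. The 5 stromal markers summed to 0.121 to 6.42 CPM, and the 4 erythroid markers to 16.6 to 25.7 CPM in WT, 17.9 to 27.9 CPM in KO1 and 30.0 to 42.96 CPM in KO2. The myeloid and lymphoid sums moved with time and the erythroid sum with KO2, and their part in the results was not tested.

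Nat10 was lower in both clones than in WT before treatment and more so late in it, and it fell with time in every genotype. In the untreated WT libraries Nat10 stood at 111.1 and 113.2 CPM. In KO1 it stood at 97.7 and 108.4 CPM and in KO2 at 99.2 and 95.1 CPM. All 4 clone libraries lay below both WT libraries. In edgeR's quasi-likelihood test the log2 difference at 0 h was -0.12 (SE 0.048, adjusted p = 0.0486) for KO1, and 12.3% of the 16167 genes tested were called lower in that comparison. For KO2 it was -0.21 (SE 0.048, adjusted p = 0.000291), a 1.154-fold lower level, where 14.3% were called lower. The difference of KO1 was not called by DESeq2 (adjusted p = 0.0942), by edgeR without a filter on low counts (adjusted p = 0.147), or on leaving out the first KO1 library (-0.043 in edgeR, adjusted p = 0.685), the first WT library (-0.13, adjusted p = 0.105) or the second (-0.10, adjusted p = 0.254). The 95% intervals ran from -0.22 to -0.026 for KO1 and from -0.30 to -0.11 for KO2.

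At 3 h the genotypes were closer. Nat10 stood at 87.2 and 88.9 CPM in WT, 83.7 and 85.2 CPM in KO1 and 82.9 and 83.6 CPM in KO2. The clone libraries again lay below those of WT, but neither difference passed the test. The log2 difference was -0.060 in KO1 (95% interval -0.16 to 0.042, adjusted p = 0.397 in edgeR), in a comparison where 16.7% of genes were called lower. In KO2 it was -0.082 (-0.18 to 0.021, adjusted p = 0.223), where 17.6% were called lower.

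The gap widened from 6 h on. At 6 h Nat10 stood at 76.2 and 75.0 CPM in WT, 66.4 and 59.9 CPM in KO1 and 54.3 and 60.1 CPM in KO2. At 9 h it stood at 62.2 and 65.9 CPM in WT, 47.5 and 50.1 CPM in KO1 and 47.1 and 47.4 CPM in KO2. No clone library reached a WT library of its time. At 6 h edgeR gave a log2 difference of -0.26 in KO1 (SE 0.054, adjusted p = 4.46e-05) and -0.40 in KO2 (SE 0.055, adjusted p = 7.92e-10), and called 17.4% and 16.8% of all tested genes lower. At 9 h the differences were -0.39 in KO1 (SE 0.057, adjusted p = 1.03e-08, 1.31-fold) and -0.44 in KO2 (SE 0.057, adjusted p = 1.98e-10, 1.36-fold), with 15.1% and 16.5% of genes called lower. Of all tested genes, 18.3% had a lower log2 difference than Nat10 in KO1 at 9 h, and 16.6% in KO2. Both clones were set against the same WT libraries, so their differences from WT are not independent of each other. KO2 and KO1 did not differ by the test at any of the 4 times, with log2 differences of KO2 from KO1 between -0.14 at 6 h and -0.022 at 3 h (adjusted p = 0.0775 to 0.869 in edgeR). At 6 h that difference had a 95% interval of -0.25 to -0.032. It was called on leaving out the second KO1 or the second KO2 library, at -0.22 in both cases (adjusted p = 0.0253 and 0.0218), and 7.83% of genes were called lower in KO2 than in KO1 at that time.

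**Figure D1:**
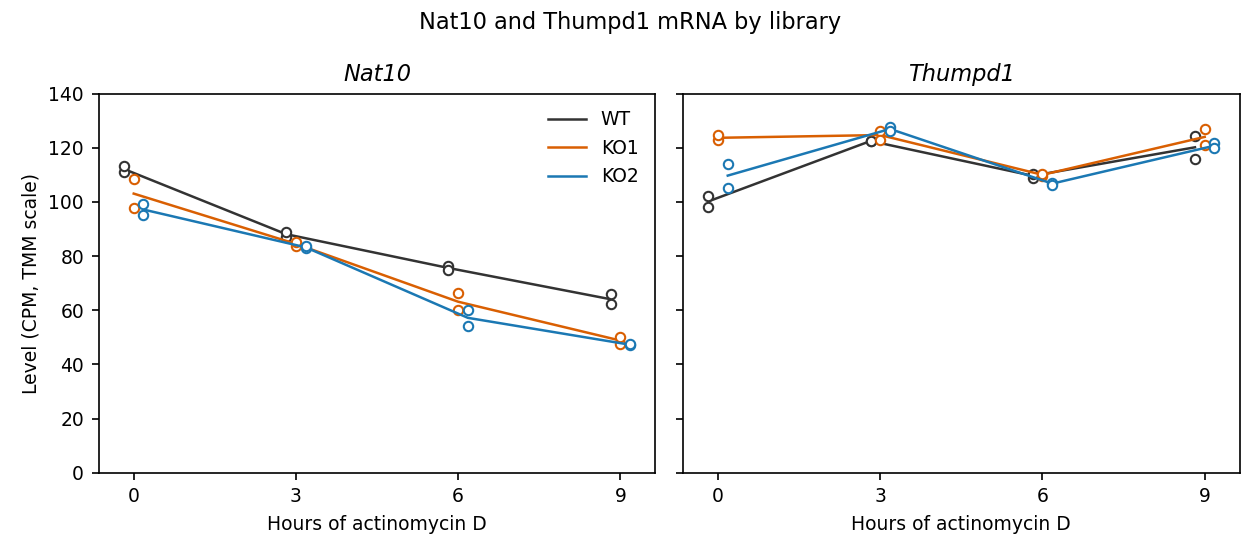
Level of Nat10 and of Thumpd1 (vertical axis, CPM on the TMM scale) against hours of actinomycin D (horizontal axis), with a point for each of the 24 libraries and a line through the mean of the 2 libraries of each group. Nat10 falls from 111.1 and 113.2 to 62.2 and 65.9 CPM in WT and ends between 47.1 and 50.1 CPM in the clones, while Thumpd1 stays between 98.3 and 127.8 CPM; on the spike-in scale Thumpd1 falls from 0 to 9 h in WT and KO2.

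Over the time course Nat10 mRNA fell in every genotype on the TMM scale, and each of the 12 changes tested passed in the downward direction. From 0 to 9 h it fell by 0.81 on the log2 scale in WT (SE 0.0505, adjusted p = 1.52e-28 in edgeR), a 1.75-fold loss. It fell by 1.08 in KO1 (SE 0.054, adjusted p = 8.64e-36, 2.11-fold) and by 1.04 in KO2 (SE 0.054, adjusted p = 1.70e-34, 2.06-fold). Most transcripts moved over 9 h of actinomycin D: 38.5% of tested genes were called lower in WT, 38.3% in KO1 and 38.8% in KO2. On the spike-in scale the log2 change of Nat10 over 9 h was -1.63 in WT, -1.0 in KO1 and -2.17 in KO2, still in the same direction. The spike-in scale moved the median of all tested genes by -0.82 in WT and by -1.12 in KO2, so the values beside it are read against that shift.

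The loss was spread over the 9 h. In WT the log2 change was -0.35 from 0 to 3 h (adjusted p = 5.48e-10 in edgeR), -0.22 from 3 to 6 h (0.00016) and -0.24 from 6 to 9 h (0.000121), where 33.5%, 26.9% and 20.4% of genes were called lower. In KO1 the changes were -0.29 (2.56e-07), -0.42 (2.76e-11) and -0.37 (3.63e-08), where 33.4%, 28.7% and 19.9% were called lower. In KO2 they were -0.22 (5.52e-05), -0.54 (8.06e-16) and -0.27 (3.40e-05), where 33.3%, 29.4% and 21.5% were called lower. On the TMM scale WT thus had its steepest step in the first 3 h and both clones from 3 to 6 h. The order of the steps was not itself tested, and in KO1 it depended on the scale. In CPM of gene counts, without TMM scaling, KO1 held Nat10 at 94.7 and 104.6 at 0 h. It held 78.8 and 80.0 at 3 h, and 67.4 and 61.0 at 6 h. By these group means the first KO1 step was slightly steeper than the step from 3 to 6 h, while WT and KO2 kept their order. On the spike-in scale the step from 6 to 9 h was not called in any genotype, and in KO1 it turned to 0.17 (adjusted p = 0.252).

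Whether the level of Nat10 changed differently between genotypes was tested as an interaction, the change in a clone minus the change in WT. From 3 to 9 h the fall was steeper than in WT by 0.33 on the log2 scale in KO1 (a difference of -0.33, SE 0.077, adjusted p = 0.000500 in edgeR). In KO2 the difference was -0.36 (SE 0.077, adjusted p = 0.000182). In these comparisons 10.1% and 10.8% of genes were called lower. Over the whole 9 h the differences were -0.27 in KO1 (SE 0.075, adjusted p = 0.00278) and -0.23 in KO2 (SE 0.075, adjusted p = 0.0127), with 12.5% and 12.4% of genes called lower. From 0 to 3 h they were 0.060 in KO1 (adjusted p = 0.601) and 0.12 in KO2 (adjusted p = 0.213), and neither was called, in comparisons that called 25.8% and 24.7% of genes in either direction. KO2 and KO1 differed in none of the 3 intervals on the TMM scale (adjusted p = 0.732, 0.934 and 0.861), where 5.87%, 3.04% and 7.51% of genes were called in either direction.

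These interactions depended on the scale. With spike-in totals as the scale, the KO1 difference over 9 h turned to 0.63 (adjusted p = 0.000831 in edgeR) and that from 3 to 9 h to 0.23 (adjusted p = 0.302). The KO2 differences kept their sign, at -0.54 over 9 h (adjusted p = 0.0222) and -0.49 from 3 to 9 h (adjusted p = 0.119), and KO2 minus KO1 then came to -1.17 over 9 h. The median of all tested genes moved by 0.90 for KO1 minus WT and by -0.31 for KO2 minus WT over the same 9 h on that scale. Spike-ins at 9 h came to 257.9 ± 0.592 CPM of gene counts in KO1 and to 834.1 ± 13.8 CPM in KO2 (SD, n = 2), against 14.04 ± 2.58 CPM in WT. On the TMM scale the KO2 difference over 9 h also lost its call with DESeq2 (-0.20, adjusted p = 0.0908), with library totals as the scale (-0.15, 0.114), and without the second WT library at 9 h (-0.19, 0.100) or the first KO2 library at 0 h (-0.20, 0.0683). The KO1 difference over 9 h was not called without the second KO1 library at 0 h (-0.20, adjusted p = 0.0747).

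Ordered by mean, Nat10 ran from 112.1 ± 1.52 CPM in WT at 0 h (SD, n = 2 in every group) down to 47.3 ± 0.240 CPM in KO2 at 9 h. Next to the top came KO1 at 0 h (103.1 ± 7.62) and KO2 at 0 h (97.2 ± 2.87), whose libraries overlapped. WT (88.1 ± 1.22), KO1 (84.5 ± 1.04) and KO2 (83.2 ± 0.484) at 3 h followed without overlap. WT at 6 h (75.6 ± 0.846) stood alone. WT at 9 h (64.1 ± 2.63), KO1 at 6 h (63.2 ± 4.54) and KO2 at 6 h (57.2 ± 4.08) formed a run in which each group overlapped the next. KO1 at 9 h (48.8 ± 1.88) came next, with its lower library at 47.49 CPM just above the higher KO2 library at 47.45 CPM. KO1 at 6 h thus overlapped the level of WT at 9 h, and KO2 at 6 h lay below it.

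**Figure D2:**
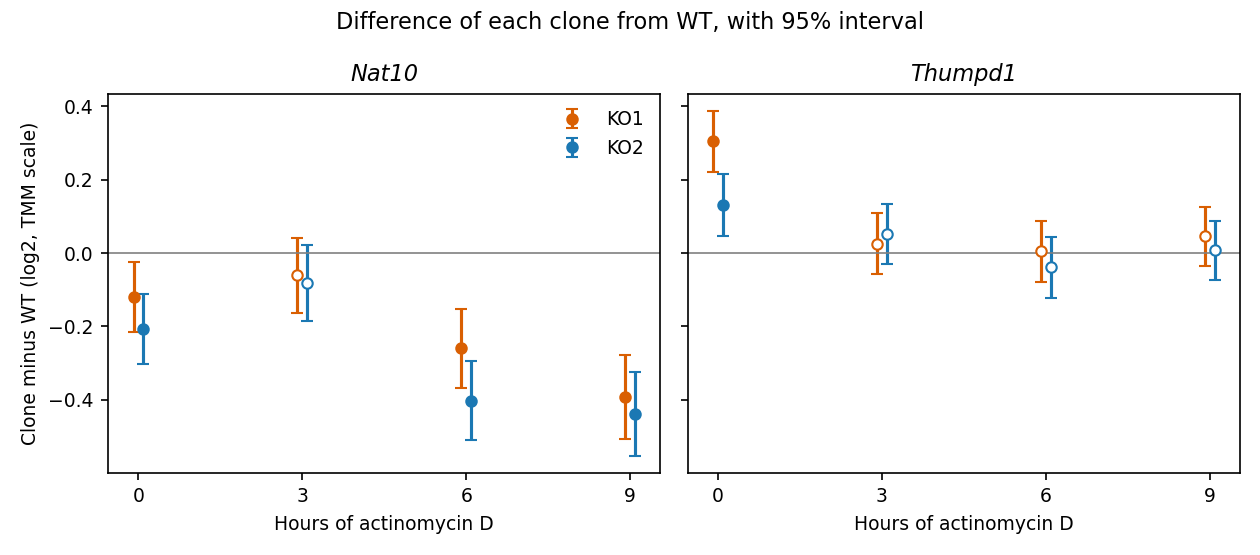
Log2 difference of each clone from WT in Nat10 and Thumpd1 (vertical axis) at each time of actinomycin D (horizontal axis, hours), from edgeR on the TMM scale; points are the fitted differences, filled where called, and bars their 95% intervals. Nat10 goes from -0.12 in KO1 and -0.21 in KO2 at 0 h to -0.39 and -0.44 at 9 h, and Thumpd1 from 0.30 and 0.13 at 0 h to 0.045 and 0.0072 at 9 h.

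Thumpd1, the adaptor, behaved otherwise than the enzyme before treatment: it was higher in both clones than in WT. Untreated WT libraries held it at 98.3 and 102.1 CPM, KO1 at 122.8 and 124.5 CPM and KO2 at 114.1 and 105.3 CPM. The libraries of the 3 genotypes did not overlap, with KO1 highest and WT lowest. In edgeR the log2 difference from WT was 0.30 in KO1 (SE 0.042, adjusted p = 3.12e-09), a 1.23-fold higher level, where 15% of tested genes were called higher. In KO2 it was 0.13 (SE 0.043, adjusted p = 0.0125, 1.095-fold), where 15.1% were called higher. The clones differed from each other by -0.17 (KO2 minus KO1, SE 0.042, adjusted p = 0.00101), where 9.55% of genes were called lower. The KO2 call against WT was lost without the first WT library (0.10, adjusted p = 0.162) or the first KO2 library (0.074, adjusted p = 0.349). The call between the clones was lost without the second KO2 library (-0.12, adjusted p = 0.125). Of all tested genes, 84.8% had a lower log2 difference than Thumpd1 in KO1 at 0 h and 69.1% in KO2.

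After the start of treatment Thumpd1 no longer differed by the test between genotypes. At 3 h it stood at 122.5 and 122.4 CPM in WT, 126.3 and 123.0 CPM in KO1 and 127.8 and 126.1 CPM in KO2. At 6 h it stood at 108.9 and 110.4 CPM in WT, 109.5 and 110.5 CPM in KO1 and 107.1 and 106.4 CPM in KO2. At 9 h it stood at 124.3 and 116.0 CPM in WT, 126.8 and 121.2 CPM in KO1 and 121.7 and 119.8 CPM in KO2. The 3 genotypes lay close together at each of these times, and KO1 overlapped WT at 6 and 9 h. None of the 9 differences was called in edgeR (adjusted p = 0.358 to 0.953), in comparisons that called 36.8%, 35.7% and 34.4% of genes for KO1 against WT, 38.7%, 34.3% and 35.2% for KO2 against WT, and 12%, 13.4% and 12.4% between the clones. At 9 h the 95% interval of the difference from WT ran from -0.035 to 0.12 in KO1 and from -0.072 to 0.087 in KO2. With library totals as the scale, the KO2 difference at 3 h was called at 0.12 (adjusted p = 0.0160).

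Over time Thumpd1 went up and down in small steps on the TMM scale. In WT the log2 change was 0.29 from 0 to 3 h (adjusted p = 1.80e-09 in edgeR), -0.16 from 3 to 6 h (0.000703) and 0.13 from 6 to 9 h (0.00667), where 38.6% of genes were called higher, 26.9% lower and 18.5% higher. In KO2 the steps were 0.21 (5.00e-06), -0.25 (1.07e-07) and 0.18 (0.000136), where 37.6% were called higher, 29.4% lower and 20% higher. KO1 had no call in the first step, at 0.011 (adjusted p = 0.817, 95% interval -0.070 to 0.093), and then -0.18 (9.91e-05) and 0.17 (0.000256), with 71.3% of genes called in either direction in the first step, 28.7% lower in the next and 19.8% higher in the last. From 0 to 9 h the change was 0.26 in WT (SE 0.042, adjusted p = 1.75e-08), 0.0035 in KO1 (95% interval -0.077 to 0.084, adjusted p = 0.940) and 0.14 in KO2 (SE 0.041, adjusted p = 0.00156). In WT and KO2, 43.2% and 42% of genes were called higher over the same 9 h, 80.5% were called in either direction in KO1, and the median log2 change of all tested genes was 0.13 in WT, 0.12 in KO1 and 0.094 in KO2. Thumpd1 therefore stayed near the middle of the transcripts, with 53.4% of tested genes below it in WT, 47.0% in KO1 and 51.1% in KO2.

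On the spike-in scale the rises of Thumpd1 from 0 h turned negative in WT and KO2. The change from 0 to 9 h was then -0.57 in WT (adjusted p = 6.63e-06 in edgeR), -0.99 in KO2 (adjusted p = 2.43e-15) and 0.081 in KO1 (adjusted p = 0.552). From 0 to 3 h it was -0.21 in WT (adjusted p = 0.117) and -0.46 in KO2 (adjusted p = 0.000322). A rise of Thumpd1 on the TMM scale is thus a rise relative to the average transcript. The KO2 change over 9 h also lost its call without the second KO2 library at 0 h (0.082, adjusted p = 0.129), and the WT step from 6 to 9 h without the first WT library at 6 h (0.12, 0.0689) or at 9 h (0.078, 0.266).

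The difference in the first 3 h between genotypes was itself tested. The change of Thumpd1 from 0 to 3 h was lower in KO1 than in WT by 0.28 on the log2 scale (a difference of -0.28, SE 0.059, adjusted p = 8.89e-05 in edgeR), where 12.7% of genes were called lower. It was higher in KO2 than in KO1 by 0.20 (SE 0.059, adjusted p = 0.0229), where 3.32% were called higher. The KO2 change did not differ from that of WT by the test (-0.080, 95% interval -0.20 to 0.039, adjusted p = 0.378). Over 9 h KO1 stood apart from WT by -0.26 (SE 0.058, adjusted p = 0.000217), where 12.5% were called lower, and KO2 by -0.12 (adjusted p = 0.116), which was called only without the second WT library at 9 h (-0.17, adjusted p = 0.0432) or the second KO2 library at 0 h (-0.18, 0.0313) among the alternatives run. None of the changes from 3 to 9 h differed by the test on the TMM scale (adjusted p = 0.874 for KO1 minus WT, 0.666 for KO2 minus WT and 0.680 for KO2 minus KO1). On the spike-in scale the KO1 difference over 9 h turned to 0.65 (adjusted p = 0.000375), the one over 3 h to 0.063 (adjusted p = 0.849), and that of KO2 from KO1 over 3 h to -0.31 (adjusted p = 0.124). The KO2 difference from KO1 over 3 h was also lost with DESeq2 (adjusted p = 0.0540) and without the second KO1 library at 0 or 3 h, the second KO2 library at 0 h or the first KO2 library at 3 h (0.15 to 0.19).

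By mean level, Thumpd1 ranged only from 100.2 ± 2.70 CPM in WT at 0 h to 126.9 ± 1.19 CPM in KO2 at 3 h (SD, n = 2 in every group). Below that highest group came KO1 at 3 h (124.7 ± 2.36), at 9 h (124.0 ± 3.97) and at 0 h (123.6 ± 1.21), each overlapping the next, then WT at 3 h (122.5 ± 0.0644). KO2 at 9 h (120.7 ± 1.303) and WT at 9 h (120.1 ± 5.87) overlapped. The WT libraries at 9 h, at 116.0 and 124.3 CPM, also spanned those of WT at 3 h and overlapped KO1 at 0, 3 and 9 h. KO2 at 9 h overlapped KO1 at 9 h as well. KO1 at 6 h (110.0 ± 0.668), KO2 at 0 h (109.7 ± 6.22) and WT at 6 h (109.6 ± 1.03) came next and overlapped in turn. KO2 at 6 h (106.7 ± 0.534) lay below WT at 6 h and within the range of KO2 at 0 h. WT at 0 h was the lowest of the 12 groups and did not overlap the group above it.

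Setting the genes against each other within a library removes the scale. The ratio of Thumpd1 to Nat10 counts at 0 h was 0.885 and 0.902 in WT, 1.26 and 1.148 in KO1 and 1.1501 and 1.11 in KO2. WT libraries thus held fewer counts of Thumpd1 than of Nat10, and clone libraries held more. At 3 h it was 1.40 and 1.38 in WT, 1.51 and 1.44 in KO1 and 1.54 and 1.51 in KO2. At 6 h it was 1.43 and 1.47 in WT, 1.65 and 1.84 in KO1 and 1.97 and 1.77 in KO2. At 9 h it was 1.998 and 1.76 in WT, 2.67 and 2.42 in KO1 and 2.58 and 2.53 in KO2. At each of the 4 times all 4 clone libraries lay above both WT libraries, a description for which no test was run. The group mean of this ratio rose 2.10-fold from 0 to 9 h in WT, 2.11-fold in KO1 and 2.26-fold in KO2, with or without spike-ins as the scale.

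The same ratio per length puts the levels of the 2 genes side by side. Per base of counted exon, Thumpd1 stood 2.12 and 2.16 times as high as Nat10 in WT at 0 h, and between 5.79 and 6.40 times in the clone libraries at 9 h. Per base of the longest coding transcript the ratio was 1.28 and 1.301 in WT at 0 h and between 3.49 and 3.85 in the clones at 9 h. Thumpd1 was the more abundant mRNA per length in every library by both lengths, and the choice of length set by how much.

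**Figure D3:**
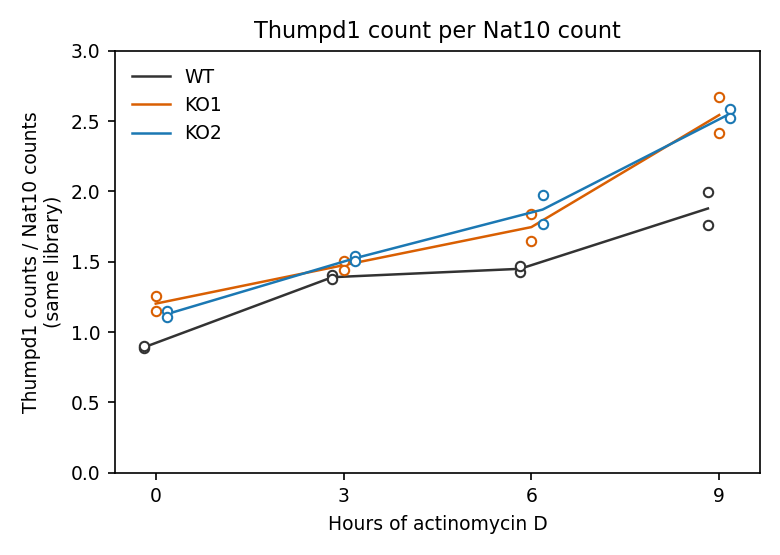
Ratio of Thumpd1 counts to Nat10 counts in each of the 24 libraries (vertical axis, no unit) against hours of actinomycin D (horizontal axis), with a point for each library and a line through the mean of each group. The clone libraries lie above the WT libraries at each time, from 1.11 to 1.26 against 0.885 and 0.902 at 0 h and from 2.42 to 2.67 against 1.76 and 1.998 at 9 h.

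**Figure D4:**
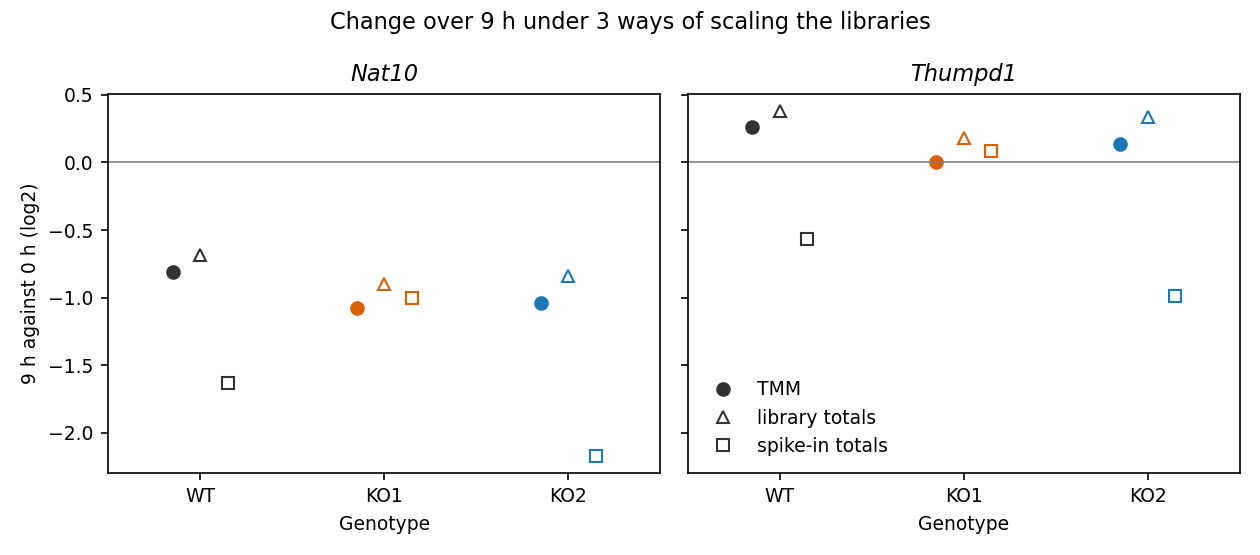
Log2 change of Nat10 and Thumpd1 from 0 to 9 h in each genotype on 3 scales, TMM, library totals and spike-in totals, from edgeR. Nat10 stays below 0 on every scale, from -0.69 to -2.17, while Thumpd1 in WT and KO2 is above 0 with TMM and library totals and below 0 with spike-ins, at -0.57 and -0.99.

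Related genes were taken from lists of 17 genes of RNA modification and small-subunit assembly, all of which were tested. The lists were chosen with earlier results of these data known, and no set test was run. In WT at 0 h their mean levels ran from 15.2 CPM (Trmt11) to 340.6 CPM (Nop56). The shares over all tested genes also include genes with fewer counts, so the numbers called are a description. In untreated cells the calls were upward: 12 of the 17 were called higher in KO1 than in WT and 0 lower, and 9 were called higher in KO2 and 0 lower. The median log2 difference of the 17 was 0.21 in KO1 and 0.10 in KO2, beside 0.0096 and 0 over all tested genes. Of these, 15% and 15.1% were called higher, and 12.3% and 14.3% lower. KO2 was called below KO1 in 6 of the 17 and above it in 0, where 9.55% of all genes were called lower. Nat10 itself was lower in both clones. At 3 h, 10 of the 17 were called higher and 1 lower in KO1, and 11 higher and 0 lower in KO2. Of all genes, 20.1% and 21.1% were called higher there, and 16.7% and 17.6% lower. At 9 h only 2 were called higher and 1 lower in KO1, and 5 higher and 2 lower in KO2. Over all genes 19.3% and 18.7% were called higher there, and 15.1% and 16.5% lower.

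Among the THUMP-domain genes and their partner, Thumpd2 and Thumpd3 are methyltransferases of guanosine, Trmt11 methylates tRNA guanosine, and Trmt112 is the small activator that these enzymes share. At 0 h Trmt112 stood at 92.7 ± 0.552 CPM in WT, 115.4 ± 0.11 CPM in KO1 and 107.0 ± 3.25 CPM in KO2 (SD, n = 2). Its log2 difference was 0.32 in KO1 (SE 0.044, adjusted p = 3.09e-09 in edgeR) and 0.21 in KO2 (SE 0.044, adjusted p = 6.96e-05). Thumpd2 was higher in both clones, by 0.29 in KO1 (adjusted p = 0.0221) and 0.28 in KO2 (adjusted p = 0.0214). Thumpd3 was higher in KO1 at 0.20 (adjusted p = 0.00294) and not called in KO2 at 0.052 (adjusted p = 0.533), and Trmt11 was called in neither clone. Of this list, 3 of 4 were thus called higher in KO1 and 2 of 4 in KO2, and none was called lower. Of all tested genes, 15% and 15.1% were called higher at 0 h, and 12.3% and 14.3% lower.

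Of the 5 enzymes that modify bases of the 18S rRNA, 2 were called higher in each clone at 0 h and 0 lower. Over all tested genes 15% (KO1) and 15.1% (KO2) were called higher, and 12.3% and 14.3% lower. Bud23, a guanosine methyltransferase, was higher in both, with log2 differences of 0.27 in KO1 and 0.23 in KO2. Mettl5, an adenosine methyltransferase, was called in KO1 at 0.21 and not in KO2 at 0.070, and Emg1, a pseudouridine methyltransferase, was called in KO2 at 0.10 and not in KO1 at 0.089. Dimt1, which dimethylates adenosines, and Tsr3, an aminocarboxypropyl transferase, were called in neither. Of Aatf, Ngdn and Nol10, factors of early small-subunit assembly, Ngdn was higher in both clones at 0.32 and 0.19, Aatf was higher in KO1 at 0.28 and Nol10 was not called. In the core of the box C/D snoRNPs with the U3 protein Rrp9, all 5 genes were called higher in KO1 and 4 of 5 in KO2. Rrp9 had the largest difference of the 17 in KO1, at 55.0 ± 0.907 CPM in WT and 74.6 ± 1.88 CPM in KO1 (log2 difference 0.44, SE 0.0596, adjusted p = 1.42e-09 in edgeR), and stood at 65.1 ± 1.90 CPM in KO2 (0.24, adjusted p = 0.000753). Fbl, the 2'-O-methyltransferase of these particles, was higher by 0.20 in KO1 and 0.10 in KO2.

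**Figure D5:**
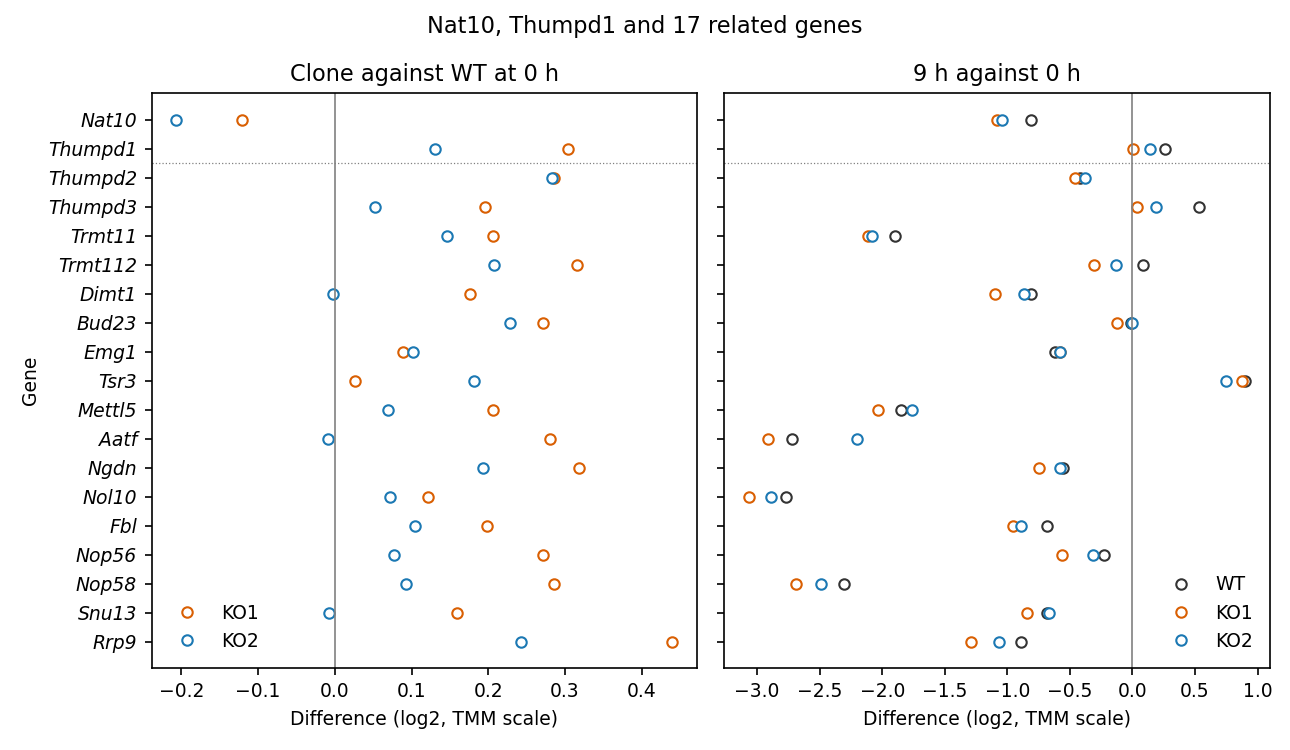
Log2 difference of each clone from WT at 0 h and log2 change from 0 to 9 h in each genotype for Nat10, Thumpd1 and the 17 listed genes, from edgeR on the TMM scale, with genes on the vertical axis and an open point for each clone or genotype whether or not it was called. At 0 h the called genes of the lists lie above 0 while Nat10 lies at -0.12 and -0.21, and over 9 h in WT Nol10 (-2.77) and Aatf (-2.72) lie lowest and Tsr3 (0.90) highest, although Tsr3 in KO2 turns to -0.38 with spike-ins as the scale.

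During actinomycin D most of the 17 fell, as Nat10 did. From 0 to 9 h, 13 were called lower and 2 higher in WT, 14 lower and 1 higher in KO1, and 14 lower and 2 higher in KO2, with median log2 changes of -0.68, -0.84 and -0.67 beside 0.13, 0.12 and 0.094 over all tested genes. Of all tested genes, 38.5%, 38.3% and 38.8% were called lower in these comparisons and 43.2%, 42.2% and 42% higher. Nol10 had the lowest value in each genotype, at -2.77, -3.06 and -2.89 in WT, KO1 and KO2. Its level went from 41.5 ± 4.89 to 6.08 ± 1.34 CPM in WT (SD, n = 2). In WT the change was -2.72 for Aatf, -2.30 for Nop58, a box C/D core protein, and -1.90 for Trmt11. With Nat10 at -0.81 in WT, the falls of Dimt1 (-0.81) and Rrp9 (-0.89) had nearly the same size, a comparison that was not tested. Tsr3 rose in all 3 genotypes on the TMM scale, at 0.90, 0.88 and 0.75, but on the spike-in scale it was at 0.072 in WT and not called, 0.95 in KO1, and -0.38 in KO2. Thumpd3 was the only other gene of the lists called higher, with 0.54 in WT and 0.19 in KO2, and it turned to -0.29 and -0.94 on the spike-in scale. In KO1 Thumpd3 was at 0.037 and not called (adjusted p = 0.520 in edgeR). Every fall of a listed gene called over 9 h on the TMM scale remained below 0 with spike-ins.

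Among the 3 genotypes at 0 h, Thumpd3 had its lowest level in WT, as had most of the 17. It stood at 61.8 ± 3.16 CPM in WT, 70.7 ± 1.41 CPM in KO1 and 64.0 ± 0.572 CPM in KO2, and the KO2 difference was not called. At 9 h WT held it at 89.5 ± 2.45 CPM and the clones at 72.5 ± 0.903 CPM (KO1) and 72.9 ± 0.784 CPM (KO2), so that it was lower in both clones by 0.30 on the log2 scale (a difference of -0.30 in each, called in edgeR). The change from 3 to 9 h was called lower than in WT in 8 of the 17 genes in KO1 and in 5 in KO2. It was called higher in 0 in either clone, on the TMM scale. Over all tested genes 10.1% and 10.8% were called lower in these comparisons. Nat10 was called lower in both, and Thumpd1 in neither. With spike-ins as the scale the KO1 pattern turned: 16 of the 17 were above 0, 7 were called higher, with Trmt112 at 0.69, and 0 were called lower. For KO2 all 17 were below 0 on that scale and 0 were called.

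Genes whose pattern was most like that of each of the pair were taken by Pearson's r over the 12 group means of log2 CPM, among 9635 genes whose mean reached 5 CPM. These values describe groups that share libraries, depth and scaling, and carry no test. For Nat10 they were Entpd5 (r = 0.984), Fbxo31 (0.982), Itfg1 (0.981), Gas5 (0.981) and Bri3bp (0.979), and 725 genes had an r above 0.9. Entpd5 is a nucleoside diphosphatase of the endoplasmic reticulum, Fbxo31 a substrate receptor of an SCF ubiquitin ligase, and Gas5 a noncoding host of snoRNAs. All 5 fell over 9 h, with log2 changes in WT from -0.58 for Gas5 to -1.54 for Fbxo31. For Thumpd1 the closest were Trnt1 (0.864), Dph3 (0.863), Sec62 (0.838), Zfp146 (0.835) and Mrpl50 (0.813), and 0 genes were above 0.9. Trnt1 adds the CCA end to tRNAs, Dph3 takes part in diphthamide synthesis and tRNA wobble modification, and Sec62 belongs to the protein translocation machinery. An r above 0.9 was thus reached by 725 of the 9635 genes for Nat10, while no gene came as close to Thumpd1. Group means ran from 47.3 to 112.1 CPM for Nat10 and from 100.2 to 126.9 CPM for Thumpd1. How many genes reach such an r with other genes was not tested. Between Nat10 and Thumpd1 themselves r was -0.196.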

How the data were processed

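Each library came with a table of read-pair counts per gene, deposited by the authors. Per the file headers the counts were made with featureCounts 1.6.3 over exons by gene and without strand, and the annotation path names Ensembl release 105 for GRCm39 joined to the ERCC spike-ins. STAR and DESeq2 are named in the submitters' processing notes, with versions not given in the sources used here. Although the library kit kept strand, the counting did not. GENCODE M21 named 52081 of 55414 gene identifiers, and 0 entries were blank or summary rows. The 92 spike-ins stayed out of gene totals.

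Groups came from the titles. The libraries of a group differed beyond sampling noise in 12 of 12 groups (chi-square per degree of freedom 1.43 to 2.31) and were kept apart. The labels call them biological replicates but do not say that cultures were separate, so the p-values reflect only how these libraries varied, and that variation may be technical.

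The filterByExpr function of edgeR 4.0.16 (R 4.3.3, limma 3.58.1) with a minimum count of 10 left 16167 genes. After TMM scaling (factors 0.906 to 1.12), a quasi-likelihood model with a term for each of the 12 groups gave 33 contrasts per gene: 12 between genotypes, 12 between times and 9 interactions. Every printed adjusted p is Benjamini-Hochberg over all genes in the fit, which are these 16167 in edgeR unless an alternative or DESeq2 (1.42.0) is named, and calls were made below 0.05. Standard errors were derived from the F statistic. On simulated counts of 15183 genes for KO1 against WT at 9 h, 80.6% of 1.3-fold changes and 55.2% of 1.15-fold changes were recovered, with 8 false calls. For KO1 minus WT over 0 to 9 h these were 62.7% and 31.3%, with 6 false calls.

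The 2 genes, the related lists and the tests were chosen with earlier results of these data known. Genes named are these 2, list members, overlapping genes, and for each of the 2 the 5 highest in Pearson's r over group means (prior count 2, mean of at least 5 CPM, no predicted genes). Marker genes were checked in CPM of gene counts. The alternatives tried were DESeq2, its size factors within edgeR, library totals, spike-in totals (over time only), no filter, only the groups compared, a replicate block, and leaving out each library.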

Additional observations from a re-analysis of the deposited data

Results flagged for a closer look

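Of the 9 differences of time courses tested for each gene, 4 for Nat10 and 3 for Thumpd1 passed the test of the difference between genotypes itself on the TMM scale (edgeR, adjusted over all tested genes). For Nat10 the change from 3 to 9 h in KO1 minus that in WT was -0.33 (adjusted p = 0.000500) and in KO2 minus WT -0.36 (adjusted p = 0.000182). For Nat10 from 0 to 9 h the values were -0.27 (adjusted p = 0.00278) for KO1 and -0.23 (adjusted p = 0.0127) for KO2. Of all tested genes, 10.1% (KO1) and 10.8% (KO2) were called lower from 3 to 9 h. From 0 to 9 h the shares were 12.5% and 12.4%. For Thumpd1 the change in KO1 minus that in WT was -0.28 from 0 to 3 h (adjusted p = 8.89e-05) and -0.26 from 0 to 9 h (adjusted p = 0.000217), and that in KO2 minus KO1 from 0 to 3 h was 0.20 (adjusted p = 0.0229). Here 12.7% and 12.5% of all genes were called lower in the KO1 comparisons, and 3.32% higher in KO2 minus KO1. All 3 Thumpd1 differences use the KO1 libraries at 0 h, and those of Nat10 share WT libraries, so the calls are not independent. With spike-ins as the scale, all of these differences but the 2 of Nat10 in KO2 from WT changed sign.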

How the results depend on the processing

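Of 33 results per gene, 20 for Nat10 and 14 for Thumpd1 kept their direction where called and their side of the threshold under every alternative run. Deviations of same-numbered libraries correlated only weakly, at -0.0226 to 0.0914 over 24 comparisons, and the main model did not pair them. The highest values were in KO2, at 0.0914 for 9 h against 6 h and 0.0732 for 6 h against 3 h. A replicate block changed 0 of 66 calls (Nat10 in KO1 against WT at 0 h stayed at -0.12), as did DESeq2 size factors and fits of only the groups compared.

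With spike-ins as the scale 10 called log2 values changed sign: Thumpd1 from 0 to 3 h in WT (-0.21) and KO2 (-0.46), from 0 to 9 h in WT (-0.57) and KO2 (-0.99), Nat10 from 6 to 9 h in KO1 (0.17), and, as KO1 minus WT, Nat10 from 3 to 9 h (0.23) and 0 to 9 h (0.63) and Thumpd1 from 0 to 3 h (0.063) and 0 to 9 h (0.65), and Thumpd1 in KO2 minus KO1 from 0 to 3 h (-0.31). Calls were lost for 6 to 9 h in Nat10 (WT -0.25, KO2 -0.26) and Thumpd1 (WT 0.11, KO2 0.19) and for Nat10 in KO2 minus WT from 3 to 9 h (-0.49). Calls were gained for Thumpd1 in KO1 minus WT from 3 to 9 h (0.59) and for KO2 minus KO1 in Nat10 (-0.45, -0.72 and -1.17 for 0 to 3, 3 to 9 and 0 to 9 h) and Thumpd1 (-0.76 and -1.07 for the last 2). Of the values not called on the TMM scale 5 changed sign too: those of KO2 minus KO1 from 0 to 9 h in both genes and from 0 to 3 h in Nat10, Thumpd1 from 0 to 3 h in KO1 (-0.15) and Nat10 in KO2 minus WT from 0 to 3 h (-0.048). WT spike-in counts were few, and the cause was not tested.

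With library totals, calls were gained for Thumpd1 in KO2 against WT at 3 h (0.12) and KO1 from 0 to 9 h (0.18) and Nat10 in KO2 minus WT from 0 to 3 h (0.20), and lost for Thumpd1 from 3 to 6 h (WT -0.060, KO1 -0.066), Nat10 from 6 to 9 h in WT (-0.11) and Nat10 in KO2 minus WT from 0 to 9 h (-0.15). DESeq2 lost Nat10 in KO1 against WT at 0 h (-0.13) and in KO2 minus WT from 0 to 9 h (-0.20), and Thumpd1 in KO2 minus KO1 from 0 to 3 h (0.20). Without a filter, Nat10 in KO1 against WT at 0 h was lost (-0.11). The cause was not tested.

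Leaving out each library left 315 of 336 values on their side; a lone library was then assumed to vary like the other groups. Ranges of the rest at 0 h were -0.19 to -0.043 (Nat10, KO1 against WT), 0.074 to 0.19 (Thumpd1, KO2 against WT) and -0.24 to -0.12 (Thumpd1, KO2 against KO1), and -0.22 to -0.070 at 6 h (Nat10, KO2 against KO1). Over time they were 0.078 to 0.18 (Thumpd1, WT, 6 to 9 h) and 0.082 to 0.20 (Thumpd1, KO2, 0 to 9 h). As differences over 0 to 9 h they were -0.35 to -0.20 (Nat10, KO1 minus WT), -0.27 to -0.19 (Nat10, KO2 minus WT), -0.18 to -0.064 (Thumpd1, KO2 minus WT) and 0.080 to 0.20 (Thumpd1, KO2 minus KO1), and 0.15 to 0.26 over 0 to 3 h (Thumpd1, KO2 minus KO1). Counts of called list genes moved by over 1.5 times in 12 to 37 of 264 cases with DESeq2, its size factors, library totals or no filter, in 2 with the block and in 75 of 168 with spike-ins.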
